A study of Mus musculus with 6 samples.

Results

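The unfolded protein response and the integrated stress response were followed through 35 listed genes in whole small intestine of mouse embryos at E18.5. The list was applied to the deposited array values by symbol: probe sets annotated to exactly 1 listed gene were taken, and the brightest over the 6 arrays stood for the gene. Of the 35 genes, 34 were measured in this way among 19938 genes in all. The exception was Aars, the cytosolic alanyl-tRNA synthetase, whose only probe set carries several gene symbols and is not analysed here. The study hybridised total RNA from 3 E-cadherin conditional knockout intestines (cKO) and from 3 control intestines, labelled wild type, on 6 Affymetrix Mouse Gene arrays. E-cadherin, encoded by Cdh1, is the adhesion molecule of epithelial adherens junctions. The labels name neither the driver of the conditional deletion nor whether each array came from a separate animal.

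Proteins destined for the cell surface, secretion or the endomembrane system fold in the endoplasmic reticulum (ER). When unfolded proteins build up there, sensors in the ER membrane (Ire1, Perk and Atf6) start the unfolded protein response. Atf6 and the spliced form of Xbp1 raise ER chaperones, folding enzymes and the machinery of ER-associated degradation. Perk phosphorylates the initiation factor eIF2, as do other kinases that sense amino acid shortage, viral RNA or haem shortage. That shared arm, the integrated stress response, slows most translation while favouring Atf4, which raises genes for amino acid synthesis and uptake, for tRNA charging and for stress signalling. In the intestine the secretory goblet and Paneth cells are known for their large load on the ER.

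Both arms are known for short promoter elements, and these are printed here because they belong to the branches that are compared below. RefSeq promoter windows (GRCm38.p6, 250 bases before to 50 after each gene's start) were found for 32 of the 35 genes, and Atf6, Ern2 and Manf had no entry. Each window was searched on both strands for 4 motifs. The ER stress response element (ERSE), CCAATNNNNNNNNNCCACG, occurred in 7 of the 11 chaperone and folding genes with a window and in no gene of the other roles, against 0.119% of all 32851 windows. The capitals below mark the ERSE with 20 bases on either side, 5′ to 3′ on the strand of the gene.
Hspa5, chr2:34772005-34772063, + strand: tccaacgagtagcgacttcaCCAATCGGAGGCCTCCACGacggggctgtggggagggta
Pdia6, chr12:17266471-17266529, + strand: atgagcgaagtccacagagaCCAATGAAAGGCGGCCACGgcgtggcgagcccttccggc
Calr, chr8:84847055-84847113, - strand: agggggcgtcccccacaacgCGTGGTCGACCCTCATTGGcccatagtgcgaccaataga
Canx, chr11:50325780-50325838, - strand: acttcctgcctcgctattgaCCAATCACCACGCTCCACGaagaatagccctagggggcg
Dnajc3, chr14:118937807-118937865, + strand: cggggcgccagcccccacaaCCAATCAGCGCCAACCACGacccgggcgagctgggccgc
Creld2, chr15:88819500-88819558, + strand: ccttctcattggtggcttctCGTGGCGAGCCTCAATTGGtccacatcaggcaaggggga

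In Calr and Creld2 the element reads on the opposite strand, so its letters appear as CGTGG and then ATTGG. Hsp90b1 had 2 such elements, in opposite orientations.
Hsp90b1, chr10:86705513-86705676, - strand: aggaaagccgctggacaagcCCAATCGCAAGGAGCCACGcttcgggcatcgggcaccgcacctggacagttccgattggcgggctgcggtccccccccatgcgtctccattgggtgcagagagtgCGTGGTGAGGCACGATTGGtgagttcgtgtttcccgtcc

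The shorter ERSE-II (ATTGGNCCACG) was present in 0.0365% of all windows and, among the members, in Herpud1 alone. The same Herpud1 window held a CARE (TGATGNAA), the C/EBP-Atf response element to which Atf4 binds with a C/EBP partner. The window is shown because it carries an element of each arm, the CARE first, read on the opposite strand, and then the ERSE-II.
Herpud1, chr8:94386297-94386407, + strand: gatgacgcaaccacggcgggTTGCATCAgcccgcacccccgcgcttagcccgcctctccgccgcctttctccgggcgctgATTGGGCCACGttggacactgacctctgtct

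The CARE letters occurred in 3.97% of all windows. Among the Atf4-type members, 5 of 15 had a match: Chac1, Trib3, Nupr1, Asns and Aars, of which Trib3 had its match after the start. The matches in the measured genes Chac1, Nupr1 and Asns are given in capitals.
Chac1, chr2:119351029-119351076, + strand: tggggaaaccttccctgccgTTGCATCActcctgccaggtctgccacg
Nupr1, chr7:126625553-126625600, - strand: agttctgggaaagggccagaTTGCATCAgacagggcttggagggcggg
Asns, chr6:7693210-7693252, - strand: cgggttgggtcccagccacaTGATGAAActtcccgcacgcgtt

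The fourth motif, the UPRE to which spliced Xbp1 binds (TGACGTGG), was found in 0 of the 32 members and in 0.676% of all windows. Different motifs overlapped at 0 positions. A match of letters is a description of the window and does not show binding.

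Values below are deposited log2 levels, and each difference is the cKO mean minus the control mean, in log2 units, with the standard error (SE) of the limma fit. A gene was called changed where limma's adjusted p, by Benjamini-Hochberg over the 19938 genes, was below 0.05. Of all genes 14.2% were called, 6.81% higher and 7.36% lower in cKO, and the median difference of all genes was -0.09. At an unadjusted p below 0.05, 13.2% of all genes were higher and 15.5% lower. Fewer genes were called without cKO array 3 (658 higher and 859 lower), control array 2 (509 and 717) or control array 3 (667 and 838) than with all arrays (1358 and 1467). Among the 34 measured members 7 were called: Ppp1r15a, Nupr1 and Mthfd2 rose, and Dnajb9, Sdf2l1, Herpud1 and Sel1l fell. That is 20.6% of the members, set beside the 14.2% of all genes. The other 27 did not pass. The 3 cKO values lay wholly above the 3 control values in 6 members and wholly below them in 12, where 16.0% and 19.3% of all genes did so and 35.4% were apart in either direction. The plot of member differences shows the members that were called lower all among the ER genes, and those called higher all among the Atf4-type genes.

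**Figure D1:**
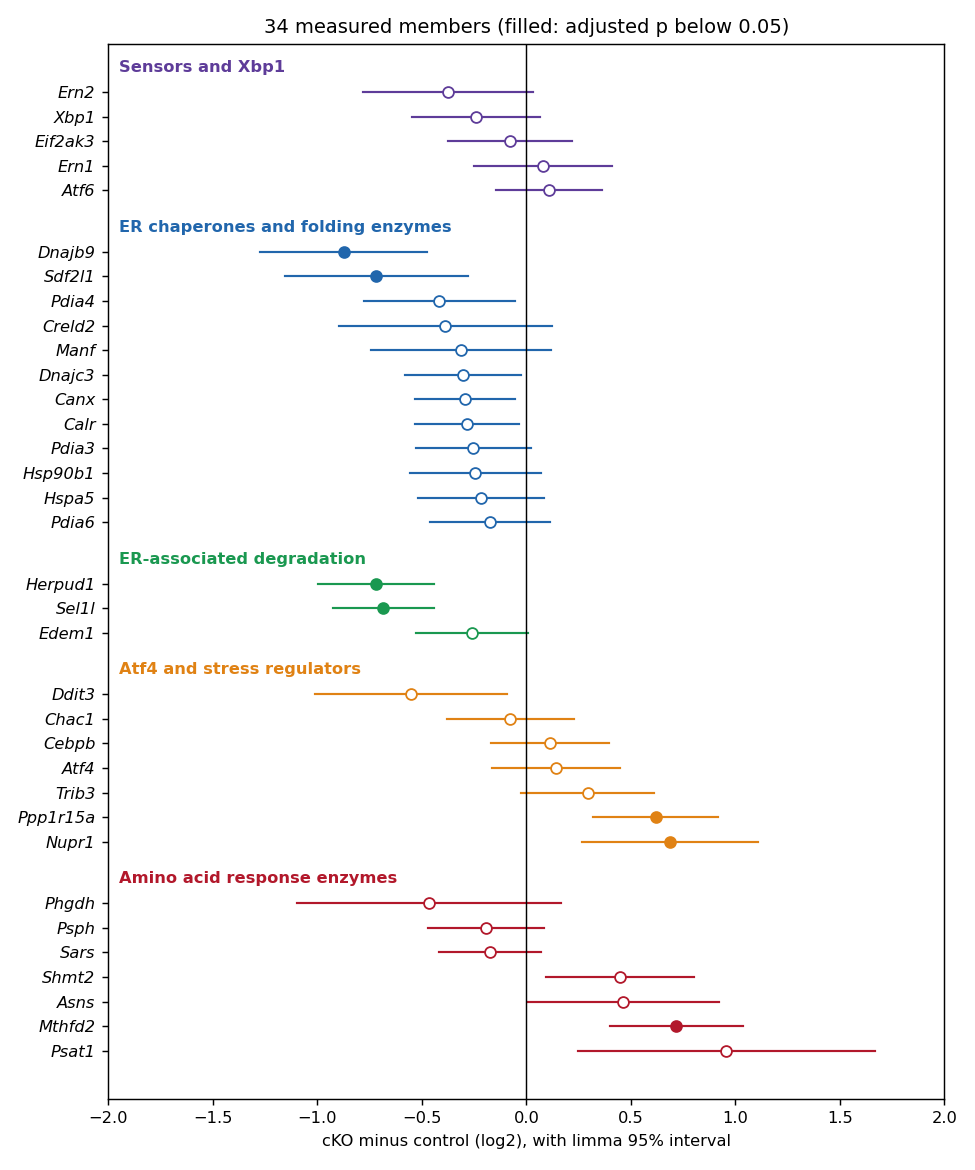
Difference in level, cKO minus control (log2), for each of the 34 measured members, grouped by role, with bars for the 95% confidence interval of the limma fit (3 cKO and 3 control arrays) and filled points for adjusted p below 0.05. All 12 chaperone and folding genes and the 3 degradation genes sit below 0, and the Atf4-type genes lie on both sides of it.

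The samples stood apart in more than these genes. Cdh1, the targeted gene, had log2 levels of 9.70, 8.38 and 8.91 in cKO arrays 1, 2 and 3, against 9.86, 9.82 and 10.15 in controls 1, 2 and 3. Every cKO value was below every control value, but the difference of -0.95 did not pass the test (limma adjusted p = 0.088). Epithelial markers were present on all arrays, and their summed linear level was 34000 to 35200 in cKO and 29700 to 33500 in controls. Of the 13, the keratins Krt8, Krt18 and Krt19 rose (0.91, 1.19 and 0.77), the transcription factors Cdx1, Cdx2 and Hnf4a fell (-0.60, -0.79 and -0.88), and 7, Epcam among them (-0.10), did not pass. The summed linear level of 15 enterocyte markers was 27300 to 28500 in cKO and 48900 to 67000 in controls, and 10 of the 15 fell. The sums of fibroblast and matrix markers (22500 to 26100 in cKO, 14000 to 16500 in controls), of smooth muscle markers (26000 to 28100 in cKO, 14700 to 17500 in controls) and of macrophage markers (4560 to 6070 in cKO, 2490 to 2760 in controls) were higher in every cKO array. In whole tissue, fewer cells of a type and less RNA per cell cannot be told apart, and the part of these markers in the results below was not tested. On cKO array 3 alone the pancreas acinar markers summed to 15400, against 555 to 876 on the other 5 arrays. On cKO array 2 dim genes read low: the median shift of all genes from the control mean was -0.23 on that array and 0.01 and 0.00 on cKO arrays 1 and 3.

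The sensors of ER stress did not pass the test in either direction. Of the 5 genes, Ern1, Ern2, Atf6, Eif2ak3 and Xbp1, 0 were called by limma and 0 had an unadjusted p below 0.05, and their median difference was -0.08. Ern2, which encodes the Ire1 form made mainly by mucosal epithelium, had log2 levels of 7.11, 6.54 and 7.07 in cKO arrays 1, 2 and 3, against 7.38, 7.17 and 7.30 in controls. The cKO values were all below the control values, with the lowest on cKO array 2, and the difference was -0.38 (SE 0.17, limma adjusted p = 0.20). Ern1, encoding the widely made Ire1, differed by 0.08 (95% interval -0.25 to 0.41). Atf6, the membrane-bound transcription factor that is cut free under stress, differed by 0.11 (95% interval -0.14 to 0.36). Eif2ak3, encoding Perk, differed by -0.08 (95% interval -0.38 to 0.22). All 3 of these genes had overlapping groups.

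Xbp1, whose mRNA Ire1 splices to give the active factor, had log2 levels of 9.72, 10.00 and 9.89 in cKO, against 10.17, 10.21 and 9.95 in controls. Control array 3 fell below cKO array 2, so the groups overlapped, and the difference of -0.24 (SE 0.13) did not pass (limma adjusted p = 0.28). The probe set gives the level of Xbp1 as a whole and not its splicing.

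Among the 12 ER chaperones and folding enzymes, 2 fell (Dnajb9 and Sdf2l1) and 0 rose in cKO. All 12 differences were below 0, from -0.87 to -0.17 with a median of -0.30, beside a median of -0.09 over all genes. Of all 19938 genes, 12187 were below 0. The 2 called are 16.7% of the list, where 7.36% of all genes were called lower. At an unadjusted p below 0.05, 6 were lower and 0 higher, where 15.5% and 13.2% of all genes were. In 6 genes every cKO value was below every control value, as in 19.3% of all genes. Without control array 2 the count called lower was 0, and it was 1 without any of cKO arrays 1 and 3 and control arrays 1 and 3.

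Dnajb9 encodes an ER J-domain protein that works with the chaperone BiP and is a known target of spliced Xbp1. Its log2 levels were 8.43, 8.69 and 8.14 in cKO arrays 1, 2 and 3, against 9.09, 9.40 and 9.39 in controls 1, 2 and 3. The groups were well apart, with the lowest value on cKO array 3. Dnajb9 fell by 0.87 on the log2 scale (SE 0.17, limma adjusted p = 0.016), a level 1.83-fold lower in cKO. The call was lost without control array 2 (-0.82, adjusted p = 0.074) and without control array 3 (-0.83, adjusted p = 0.070).

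Sdf2l1, an ER protein found in complexes with J-domain chaperones, read 9.15, 9.40 and 9.09 in cKO, against 10.03, 10.20 and 9.56 in controls. Control array 3 lay nearer to cKO than the other controls did, and the groups did not overlap. Sdf2l1 fell by 0.72 on the log2 scale (SE 0.19, limma adjusted p = 0.043), a level 1.64-fold lower in cKO. This call is close to the threshold: adjusted p was 0.11 after centring each array on its median, 0.091 without cKO array 1, 0.13 without cKO array 3, 0.12 without control array 1 and 0.15 without control array 2.

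Hspa5 encodes BiP, the central Hsp70 chaperone of the ER and the usual read-out of the unfolded protein response. It had log2 levels of 11.73, 11.94 and 11.69 in cKO, against 12.10, 12.06 and 11.85 in controls. Control array 3 was below cKO array 2, so the groups overlapped. The difference of -0.22 (SE 0.13, limma adjusted p = 0.31) had a 95% interval of -0.52 to 0.08 that spans 0. Hsp90b1, the Hsp90 of the ER, differed by -0.24 (SE 0.13, adjusted p = 0.28), also with overlapping groups.

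The lectin chaperones calnexin and calreticulin, which hold newly glycosylated proteins, had a small but even difference. Canx had log2 levels of 11.28, 11.24 and 11.20 in cKO, against 11.55, 11.50 and 11.55 in controls. Calr had 11.71, 11.79 and 11.63 in cKO, against 12.05, 11.96 and 11.97 in controls. In both genes every cKO array was below every control array, with a spread within groups far smaller than for Dnajb9. Neither passed the test: the difference was -0.29 for Canx (SE 0.10, limma adjusted p = 0.10) and -0.28 for Calr (SE 0.11, limma adjusted p = 0.13).

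The disulfide isomerases Pdia3, Pdia4 and Pdia6 form and rearrange disulfide bonds in folding proteins. Pdia4 had log2 levels of 10.26, 10.51 and 10.14 in cKO, against 10.87, 10.80 and 10.49 in controls. The lowest control, array 3, was just below the highest cKO value, on array 2. The difference was -0.42 (SE 0.15, limma adjusted p = 0.12). A second probe set of Pdia4 gave -0.24. On every array its value was below the background bound of that array, which was set from receptor genes. Its difference is therefore not read as a second measurement of Pdia4. Pdia3 was 11.56, 11.77 and 11.53 in cKO, against 11.92, 11.91 and 11.79 in controls, a difference of -0.25 (SE 0.12, limma adjusted p = 0.21). Its groups nearly touched without overlapping. Pdia6 differed by -0.17 (SE 0.12, limma adjusted p = 0.40), the smallest difference among the folding genes, and its groups overlapped.

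Dnajc3, a J-domain partner of BiP that is also known as an inhibitor of Perk, read 9.73, 9.94 and 9.74 in cKO, against 10.12, 10.20 and 10.00 in controls. The groups were apart by a small gap, and the difference was -0.30 (SE 0.12, limma adjusted p = 0.14). Both of its probe sets held identical values on every array, so they count as 1 measurement. Creld2 and Manf, small ER proteins made under ER stress, had the same array pattern as each other. Creld2 had 9.04, 9.51 and 8.99 in cKO, against 9.74, 9.80 and 9.16 in controls. Manf had 9.83, 10.11 and 9.76 in cKO, against 10.29, 10.48 and 9.87 in controls. In both, control array 3 was below cKO array 2, so the groups overlapped, and neither passed (-0.39 and -0.31, limma adjusted p = 0.29 and 0.31).

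The chaperones shared an order of arrays as well as a direction. Among the cKO arrays, array 2 was highest in 11 of the 12 genes and array 3 lowest in 11. Among the controls, array 3 was lowest in 9. The median shift of the 12 genes from the control mean was -0.35, -0.15 and -0.39 on cKO arrays 1, 2 and 3, and 0.08, 0.07 and -0.13 on the controls. With arrays weighted by their fit, 11 of the 12 were called lower, where 2913 of all genes were. The weights were 0.60, 0.27 and 2.98 for cKO arrays 1, 2 and 3 and 1.06, 2.73 and 0.73 for the controls, so that cKO array 3, the lowest in 11 of the 12 genes and the array with the pancreas signal, counted most. The 7 folding genes with an ERSE in the window had differences of -0.39 to -0.17 (median -0.28) and 0 calls. The 4 with a window and no ERSE match, Pdia3, Pdia4, Dnajb9 and Sdf2l1, had differences of -0.87 to -0.25 (median -0.57) and held both calls. The search took exact letters only, so an ERSE with a mismatch or outside the window would be missed. The difference between these sets was not tested.

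**Figure D2:**
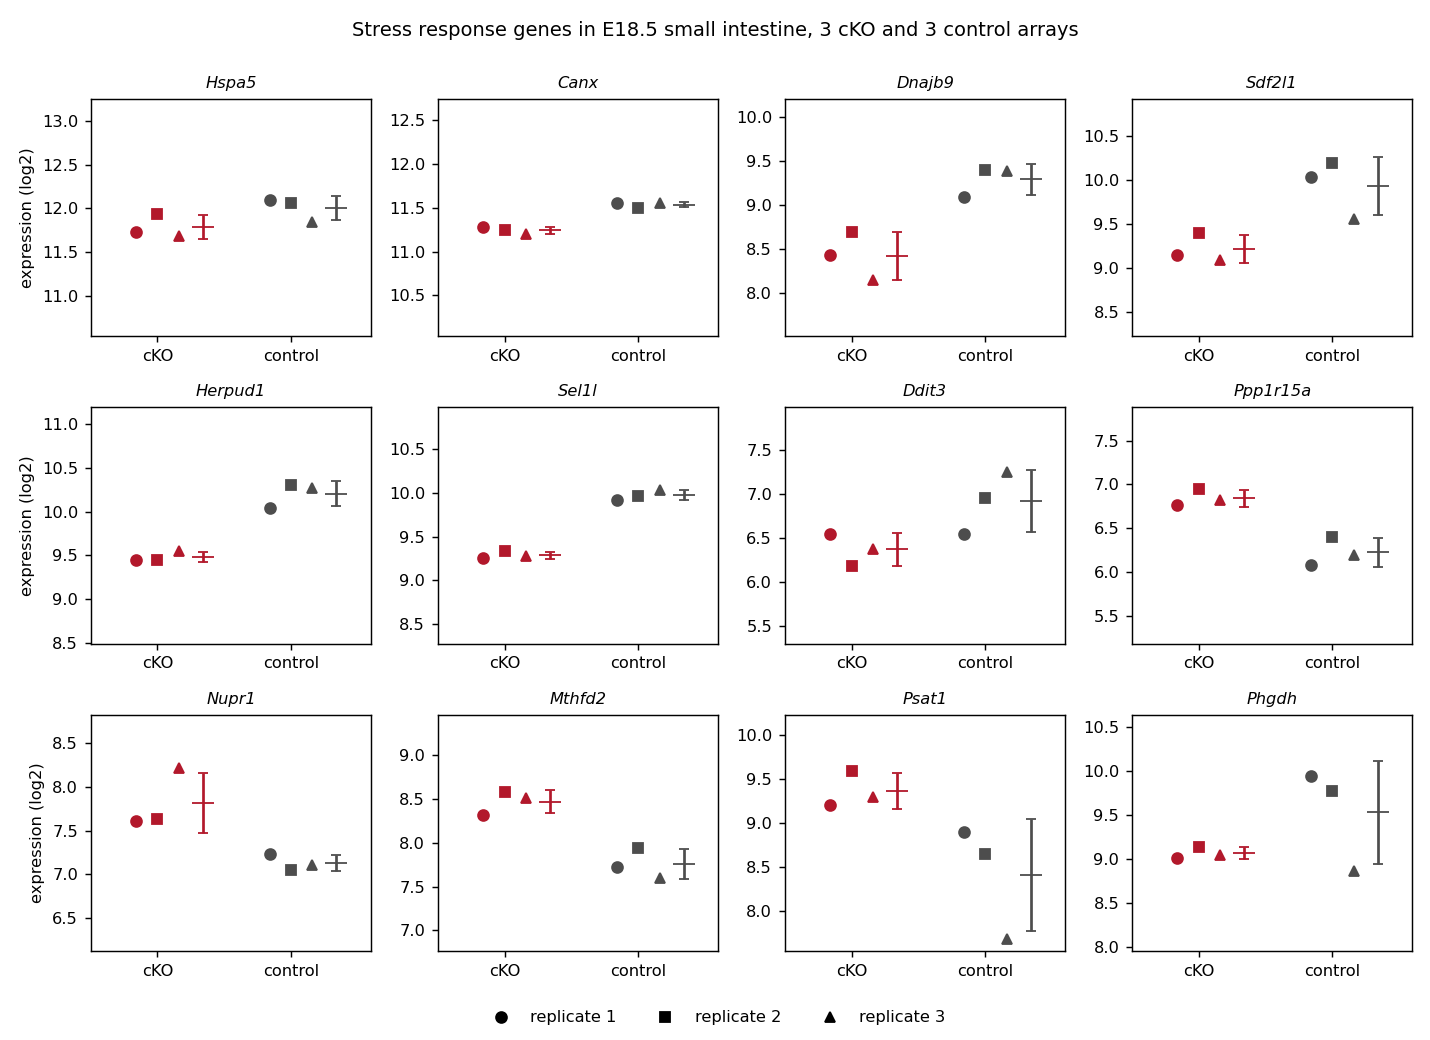
Deposited log2 level of 12 members on each array, cKO left of control, with markers for the replicate number and bars for the mean ± SD (n = 3 each). Sel1l and Herpud1 are low and Ppp1r15a, Nupr1 and Mthfd2 high on all 3 cKO arrays, while in Psat1 and Phgdh control array 3 lies far below the other controls.

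ER-associated degradation returns misfolded proteins to the cytosol for the proteasome. Of the 3, Herpud1 and Sel1l fell and 0 rose, and in all 3 every cKO value was below every control value, with a median difference of -0.68. Over all genes 7.36% were called lower and 19.3% lay wholly below. Sel1l, the adaptor that holds substrates at the Hrd1 ubiquitin ligase, had log2 levels of 9.25, 9.33 and 9.28 in cKO, against 9.92, 9.96 and 10.03 in controls. The gap between the groups was several times the spread within either. Sel1l fell by 0.68 on the log2 scale (SE 0.10, limma adjusted p = 0.0060), a level 1.61-fold lower in cKO, and was the only member called in all 15 alternatives run, with adjusted p up to 0.038.

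Herpud1, an ER membrane protein that helps assemble the Hrd1 complex and is induced by ER stress, had log2 levels of 9.45, 9.45 and 9.55 in cKO, against 10.04, 10.30 and 10.27 in controls. All cKO arrays were lower, and Herpud1 fell by 0.72 on the log2 scale (SE 0.12, limma adjusted p = 0.0080). The call was lost in 1 alternative, without control array 2 (adjusted p = 0.051). Edem1, which recognises misfolded glycoproteins after mannose trimming, read 8.97, 8.98 and 8.80 in cKO, against 9.13, 9.28 and 9.12 in controls. Its groups were apart, but the difference of -0.26 (SE 0.11) did not pass (limma adjusted p = 0.19). Control array 3 was the lowest control in 1 of the 3 genes, and the median shifts were -0.72, -0.64 and -0.65 on the cKO arrays and -0.05, 0.10 and 0.06 on the controls.

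The markers of secretory cells were read beside these decreases. Of 10 goblet cell markers 9 were measured, and their summed linear level was 6900 to 7730 in cKO and 7430 to 8740 in controls, which overlap. Among them 1 fell, Tff3 (-0.65, limma adjusted p = 0.019), and 1 rose, Zg16 (1.66, limma adjusted p = 0.027), while Muc2, the main intestinal mucin, differed by 0.09 (limma adjusted p = 0.71). The 6 measured Paneth cell markers summed to 1720 to 2350 in cKO and 1240 to 2290 in controls, but 4 of the 6 were called: Lyz1 (2.17), Ang4 (1.63) and Mmp7 (1.94) rose and Defa24 (-1.06) fell. The lysozyme gene Lyz2, from the macrophage list, rose by 2.10, close to Lyz1. Whether these E18.5 samples held mature Paneth cells was not tested. On control array 3 Itln1 alone stood at 9.80, against 5.47 and 5.70 on the other controls. These marker genes were named after their values were seen, and their part in the ER gene results was not tested. Plasma and B cell markers summed to 1250 to 1470 in cKO and 1290 to 1410 in controls, with 4 of 9 at background on all arrays. The array with the pancreas signal, cKO array 3, held the lowest chaperone values in 11 of 12 genes. Without it Sel1l, Herpud1 and Dnajb9 were called lower, and Sdf2l1 was not (-0.655, and -0.717 with all arrays). The part of the pancreas signal in the ER gene results was not tested. No marker of any of these lists had a value of 0.

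The Atf4 branch had genes on both sides of 0. Of the 7 genes of Atf4 and the stress regulators, 2 rose (Ppp1r15a and Nupr1), 0 fell by limma's adjusted p, and the median difference was 0.14. At an unadjusted p below 0.05, 2 were higher and 1, Ddit3, lower, where 13.2% and 15.5% of all genes were. The 2 that rose are 28.6% of the list, where 6.81% of all genes were called higher. Without cKO array 3, control array 1 or control array 3 the count was 0, and without control array 2 it was 1.

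Atf4 itself, which is controlled mainly through translation, had log2 levels of 9.59, 9.46 and 9.54 in cKO, against 9.46, 9.53 and 9.17 in controls. The groups overlapped, with control array 3 the lowest, and the difference of 0.14 did not pass (SE 0.13, limma adjusted p = 0.51). An array does not measure translation.

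Ppp1r15a encodes the stress-induced subunit (Gadd34) that brings a phosphatase to eIF2 and restores translation. It had log2 levels of 6.76, 6.95 and 6.82 in cKO, against 6.08, 6.40 and 6.19 in controls. All cKO arrays were higher, and Ppp1r15a rose by 0.62 (SE 0.13, limma adjusted p = 0.019), a level 1.54-fold higher. The values on control arrays 1 and 3 were below the background bound of those arrays (6.205 and 6.36), so the fold is read from near background. The call was lost without cKO array 3 (adjusted p = 0.063), control array 1 (0.067) or control array 3 (0.075). Immediate early genes, which also respond to handling of tissue, moved with it: 7 of 16 measured rose, and their summed linear level was 4550 to 4700 in cKO and 3060 to 3540 in controls. Their part in the Ppp1r15a result was not tested.

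Nupr1, a small stress-induced nuclear protein, had log2 levels of 7.61, 7.63 and 8.21 in cKO, against 7.23, 7.05 and 7.11 in controls. The groups did not overlap, and cKO array 3, the array with the pancreas signal, was well above the other cKO arrays. Nupr1 rose by 0.69 (SE 0.18, limma adjusted p = 0.044). Without cKO array 3 the difference was 0.49 (adjusted p = 0.080), and without control arrays 1, 2 or 3 adjusted p was 0.087, 0.15 and 0.14.

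Ddit3 encodes Chop, the factor that links prolonged stress to cell death. It had log2 levels of 6.55, 6.18 and 6.38 in cKO, against 6.55, 6.96 and 7.25 in controls. The controls spread widely, and control array 1 equalled cKO array 1. The difference of -0.55 (SE 0.20) did not pass (limma adjusted p = 0.11), and it passed without control array 1 (adjusted p = 0.048).

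Trib3, a pseudokinase that restrains Atf4 and Chop, had log2 levels of 6.88, 6.63 and 6.88 in cKO, against 6.36, 6.68 and 6.47 in controls. Control array 2 lay above cKO array 2, and the difference of 0.29 did not pass (SE 0.14, limma adjusted p = 0.20). Chac1, an enzyme that degrades glutathione, differed by -0.08 (95% interval -0.38 to 0.23) and Cebpb, a C/EBP partner of Atf4, by 0.11 (95% interval -0.17 to 0.40), both with overlapping groups.

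The amino acid response enzymes make serine, asparagine and folate-bound carbon units or charge tRNA. Of the 7 measured, 1 rose (Mthfd2), 0 fell by limma's adjusted p, and the median difference was 0.45. Over all genes 6.81% were called higher. At an unadjusted p below 0.05, 4 were higher (Asns, Psat1, Shmt2 and Mthfd2) and 0 lower, where 13.2% and 15.5% of all genes were. In those 4 genes all cKO values were above all control values (16.0% of all genes), and in Psph and Sars all cKO values were below (19.3% of all genes).

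Mthfd2, the mitochondrial enzyme that oxidises folate-bound carbon units, had log2 levels of 8.32, 8.58 and 8.51 in cKO, against 7.72, 7.94 and 7.60 in controls. All cKO arrays were higher. Mthfd2 rose by 0.72 (SE 0.14, limma adjusted p = 0.014), a level 1.64-fold higher in cKO. The call was lost by a small margin without cKO array 3 (adjusted p = 0.055), control array 1 (0.0502) or control array 3 (0.058). Shmt2, the mitochondrial enzyme just before it, which takes the carbon unit from serine, had 9.40, 9.51 and 9.35 in cKO, against 9.10, 9.14 and 8.68 in controls. Its groups were apart with control array 3 the lowest, and the difference of 0.45 (SE 0.15) did not pass (limma adjusted p = 0.097).

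Serine synthesis runs from Phgdh through Psat1 to Psph, and none of these genes passed the test with all arrays. Phgdh, the first enzyme, had log2 levels of 9.01, 9.14 and 9.04 in cKO, against 9.95, 9.78 and 8.86 in controls. Controls 1 and 2 were far above all cKO arrays, and control 3 was below them all. The difference of -0.47 (SE 0.27) did not pass with all arrays (limma adjusted p = 0.30), and without control array 3 it was -0.80 and called lower (adjusted p = 0.023).

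Psat1, the aminotransferase of the next step, had log2 levels of 9.20, 9.59 and 9.30 in cKO, against 8.90, 8.64 and 7.68 in controls. All cKO values were above the controls, with control array 3 again the lowest by far. The difference of 0.96 (SE 0.30) did not pass (limma adjusted p = 0.081), although it was the largest positive difference among the members. Psph, the phosphatase of the last step, had 7.26, 7.15 and 7.23 in cKO, against 7.55, 7.27 and 7.40 in controls. Here the cKO values were just below the controls, and the difference of -0.19 did not pass (SE 0.12, limma adjusted p = 0.33).

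Asns, the asparagine synthetase that is a standard target of Atf4, had log2 levels of 9.88, 9.95 and 9.95 in cKO, against 9.68, 9.70 and 9.01 in controls. The cKO arrays were close to each other and above all controls, and the difference of 0.46 (SE 0.20) did not pass (limma adjusted p = 0.17). Sars, the seryl-tRNA synthetase, had 10.32, 10.26 and 10.26 in cKO, against 10.52, 10.45 and 10.39 in controls. Its groups were apart in the lower direction with a difference of -0.17 (SE 0.10, limma adjusted p = 0.32).

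Control array 3 stood apart in these enzymes. It was the lowest control in 6 of the 7 genes and below the control mean in all 7, and its median shift was -0.29, against 0.14 and 0.19 on control arrays 1 and 2. On cKO arrays 1, 2 and 3 the median shift was 0.42, 0.49 and 0.38. Cell cycle markers had their lowest sum on the same array (range 6130 to 7500 in controls and 8140 to 9800 in cKO). They were not alone in this. Among the controls, array 3 had the highest sum of enterocyte markers (range 48900 to 67000). It had the lowest sums of fibroblast and matrix (14000 to 16500), smooth muscle (14700 to 17500) and macrophage markers (2490 to 2760). Its goblet cell sum, 7790, lay between those of the other controls. The part of any of these markers in the enzyme levels was not tested.

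Set side by side, the ER genes and the Atf4-type genes had medians of opposite sign. The 15 genes of chaperones, folding and degradation had a median difference of -0.30, with 4 lower, 0 higher and all 15 below 0. The 14 measured Atf4-type genes had a median of 0.22, with 3 higher, 0 lower and 9 of 14 above 0. Of all 19938 genes, 12187 were below 0 and 7751 above, and 7.36% were called lower and 6.81% higher. On cKO arrays 1, 2 and 3 the median shift of the 14 genes was 0.29, 0.11 and 0.27, against 0.07, 0.17 and -0.05 on the controls, so cKO array 2 lay below control array 2. For the 15 ER genes it was -0.38, -0.20 and -0.40 on the cKO arrays, against 0.06, 0.08 and -0.09 on the controls. The plot of array shifts gives the medians of the roles on each array. Both medians kept their sign after quantile normalization, median centring and cyclic loess. In that order the chaperone median was -0.22, -0.20 and -0.25, against -0.30 as deposited. The enzyme median was 0.51, 0.54 and 0.49, against 0.45. Without control array 3 the 2 medians were -0.34 and 0.24, with 1 chaperone lower, 0 enzymes higher and 1 enzyme lower. These counts describe the lists, whose members were chosen with results in view, and no test was made of 1 list against the other.

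**Figure D3:**
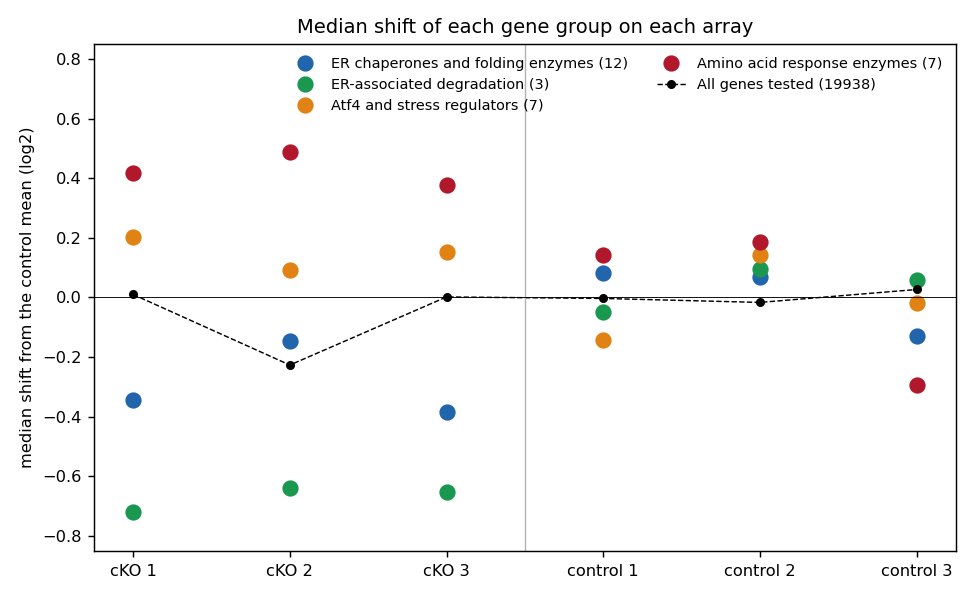
Median shift from the control mean (log2) on each array, cKO arrays left of control arrays, with coloured points for the chaperones (12 genes), the degradation genes (3), Atf4 and the stress regulators (7) and the amino acid enzymes (7), and a dashed black line for all 19938 genes. The medians of the chaperones are below 0 on all 3 cKO arrays (-0.35, -0.15 and -0.39) and those of the enzymes above 0 (0.42, 0.49 and 0.38), with control array 3 at -0.13 and -0.29.

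Other genes of the same pathways were read from 9 wider lists. Of 173 listed, 161 were measured: 17 rose, 18 fell and 126 did not pass, which is 21.7% called, and the median difference was -0.04. Fewer were called without cKO array 3 (8 higher and 7 lower), control array 2 (6 and 5) or control array 3 (9 and 6), and without cKO array 1 or control array 1 the genes called lower were 11 and 10. Centring each array on its median ended the calls of P4hb, Fkbp2, Cnpy2, Edem2, Erlin2, Cebpg, Sesn2, Rcan1, Yars and Vars, all lower in cKO and described next. Over all genes 14.2% were called, 6.81% higher and 7.36% lower, and the counts of each list below are read beside these shares.

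Among 24 other ER chaperones and folding enzymes, 5 fell and 2 rose, with a median of -0.17. P4hb, the major disulfide isomerase, had log2 levels of 11.98, 11.96 and 11.81 in cKO, against 12.37, 12.49 and 12.52 in controls, and fell by 0.54 (limma adjusted p = 0.019). Fkbp2 and Cnpy2, other proteins of the ER lumen, fell by 0.48 and 0.43 (adjusted p = 0.021 and 0.030). In the other direction Dnajc10, an ER reductase with a J-domain that serves degradation, had 9.68, 9.77 and 9.85 in cKO, against 9.15, 8.96 and 9.25 in controls, and rose by 0.65 (adjusted p = 0.014). Fkbp14, a prolyl isomerase that acts on collagen, rose by 0.70 (adjusted p = 0.043). Fibroblast and matrix markers rose in 11 of 11, and their part in the Fkbp14 result was not tested. Single arrays mattered for these 5 genes: on leaving out each array in turn, adjusted p reached 0.093 for P4hb, 0.084 for Fkbp2, 0.13 for Cnpy2, 0.072 for Dnajc10 and 0.13 for Fkbp14.

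Of 21 other degradation genes, 3 fell, 0 rose by limma's adjusted p, and the median was -0.14. At an unadjusted p below 0.05, 7 were lower and 2 higher, where 15.5% and 13.2% of all genes were. Erlin1, a scaffold protein of the ER membrane, had log2 levels of 8.02, 8.06 and 7.80 in cKO, against 8.79, 8.79 and 8.81 in controls. The groups were far apart, and Erlin1 fell by 0.84 (SE 0.12, limma adjusted p = 0.0043) and was called in all alternatives. Its partner Erlin2 fell by 0.43 (adjusted p = 0.047) and Edem2, a relative of Edem1, by 0.49 (adjusted p = 0.024), and without single arrays these adjusted p values reached 0.15 and 0.096. Of 27 genes of translocation into the ER and N-glycosylation, 0 passed limma's test, with 5 lower and 1 higher at an unadjusted p below 0.05 and a median of -0.12. The 5 of 27 are near the 15.5% of all genes that were lower at that threshold. Of the 27 differences 22 were below 0, where 12187 of all 19938 genes were. All cKO values were below all control values in 11 genes and above them in 1, as in 19.3% and 16.0% of all genes.

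Among 13 other transducers of ER stress, 2 fell and 1 rose. Creb3l3, an ER-anchored transcription factor of liver and intestine that is processed like Atf6, had log2 levels of 9.19, 9.02 and 9.05 in cKO, against 10.12, 10.54 and 10.86 in controls. The groups were far apart and Creb3l3 fell by 1.42 (SE 0.19, limma adjusted p = 0.0039). Enterocyte markers fell in 10 of 15, as given above, and their part in this result was not tested. Tmbim6, an ER membrane protein that dampens Ire1, had 10.90, 10.77 and 10.79 in cKO, against 11.43, 11.57 and 11.73 in controls, and fell by 0.76 (adjusted p = 0.0073). Creb3l2, another ER-anchored factor, which is known from cartilage to act on secretory genes, rose by 0.44 (adjusted p = 0.030, and 0.12 without the array that mattered most).

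A list of 15 genes held those for eIF2, its kinases and its exchange factor, and also Ppp1r15b, Dnajc7, Nck1, Gcn1 and Impact. Of these 15 genes, 1 rose and 0 fell, with 4 higher and 2 lower at an unadjusted p below 0.05. The 1 called higher is near the 6.81% of all genes, and the 2 lower at the unadjusted threshold are near 15.5%. The 4 higher at that threshold stand beside 13.2% of all genes. All cKO values were above all control values in 5 genes and below them in 2, as in 16.0% and 19.3% of all genes. Eif2s2, the beta subunit of eIF2, had log2 levels of 9.59, 9.86 and 9.63 in cKO, against 8.92, 8.71 and 8.40 in controls. The groups were far apart, and Eif2s2 rose by 1.02 (SE 0.16, limma adjusted p = 0.0070).

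The other Atf4-type stress genes had both directions: of 17 measured, 4 rose and 3 fell, with a median of -0.05. Atf3, a stress-induced factor that is also an immediate early gene, had log2 levels of 7.91, 8.49 and 8.32 in cKO, against 6.12, 6.29 and 6.09 in controls. It rose by 2.07 (SE 0.17, limma adjusted p = 0.00078), the largest difference among the measured genes of these pathways. Its values on control arrays 1 and 3 were below the background bound of those arrays (6.205 and 6.36). Trib2, a relative of Trib3, rose by 0.86 (adjusted p = 0.0038) and Stc2, a secreted glycoprotein induced by stress, by 0.99 (adjusted p = 0.0090). Cebpg, the C/EBP partner with which Atf4 drives amino acid genes, had 8.19, 8.25 and 8.18 in cKO, against 8.71, 8.71 and 8.75 in controls. Cebpg fell by 0.52 (adjusted p = 0.016), as did Sesn2, which restrains mTORC1, by 0.48 (adjusted p = 0.036) and Rcan1, a regulator of calcineurin, by 0.71 (adjusted p = 0.037). Without single arrays these adjusted p values reached 0.078, 0.11 and 0.10, whereas Atf3, Trib2 and Stc2 were called in all alternatives.

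Of 11 amino acid transporters known as Atf4 targets, 6 rose and 1 fell, with a median of 0.53. Slc7a5, the light chain of the transporter for large neutral amino acids, had log2 levels of 8.54, 8.61 and 8.98 in cKO, against 7.74, 7.87 and 7.71 in controls, and rose by 0.94 (SE 0.15, limma adjusted p = 0.0065). Slc3a2, the heavy chain with which it pairs, had 10.64, 10.70 and 10.76 in cKO, against 11.20, 11.38 and 11.64 in controls, and fell by 0.71 (SE 0.14, adjusted p = 0.016). The RNA of the light chain and of the heavy chain thus moved in opposite directions in whole tissue, which does not show the level of the transporter. Slc1a4, a carrier of small neutral amino acids, rose by 0.88 (adjusted p = 0.011) and Slc7a1, a carrier of arginine and lysine, by 0.67 (adjusted p = 0.013). Without single arrays adjusted p reached 0.068 for Slc3a2, 0.054 for Slc1a4 and 0.054 for Slc7a1.

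Among 16 further enzymes of amino acid and carbon-unit metabolism, 2 rose and 2 fell, with a median of 0.00. Mthfd1l, the mitochondrial enzyme that follows Mthfd2, had log2 levels of 8.12, 8.21 and 8.40 in cKO, against 7.71, 7.60 and 7.28 in controls, and rose by 0.71 (SE 0.15, limma adjusted p = 0.021). Its mitochondrial relatives Mthfd2l and Aldh1l2 did not pass (0.22 and 0.08, adjusted p = 0.35 and 0.68). Glul, glutamine synthetase, rose by 0.72 (adjusted p = 0.0095). Aldh18a1, which makes the precursor of proline and, in enterocytes, of citrulline, had 10.35, 10.09 and 10.15 in cKO, against 11.30, 11.37 and 11.55 in controls, and fell by 1.21 (adjusted p = 0.0017). Cth, which makes cysteine, fell by 1.41 (adjusted p = 0.0057). The calls of Mthfd1l and Glul were lost without single arrays (adjusted p up to 0.076 and 0.054), and those of Aldh18a1 and Cth in none of the alternatives.

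Of 17 other cytosolic aminoacyl-tRNA synthetases, 1 rose and 2 fell, with a median of 0.25 and 13 differences above 0. Of all 19938 genes, 7751 were above 0. Gars, for glycine, rose by 0.51 (limma adjusted p = 0.037), and Yars, for tyrosine, and Vars, for valine, fell by 0.50 and 0.56 (adjusted p = 0.023 and 0.030). On leaving out each array in turn adjusted p reached 0.12 for Gars, 0.11 for Yars and 0.13 for Vars. Sars and these lower synthetases thus lay on the other side of 0 from most of their family.

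**Figure D4:**
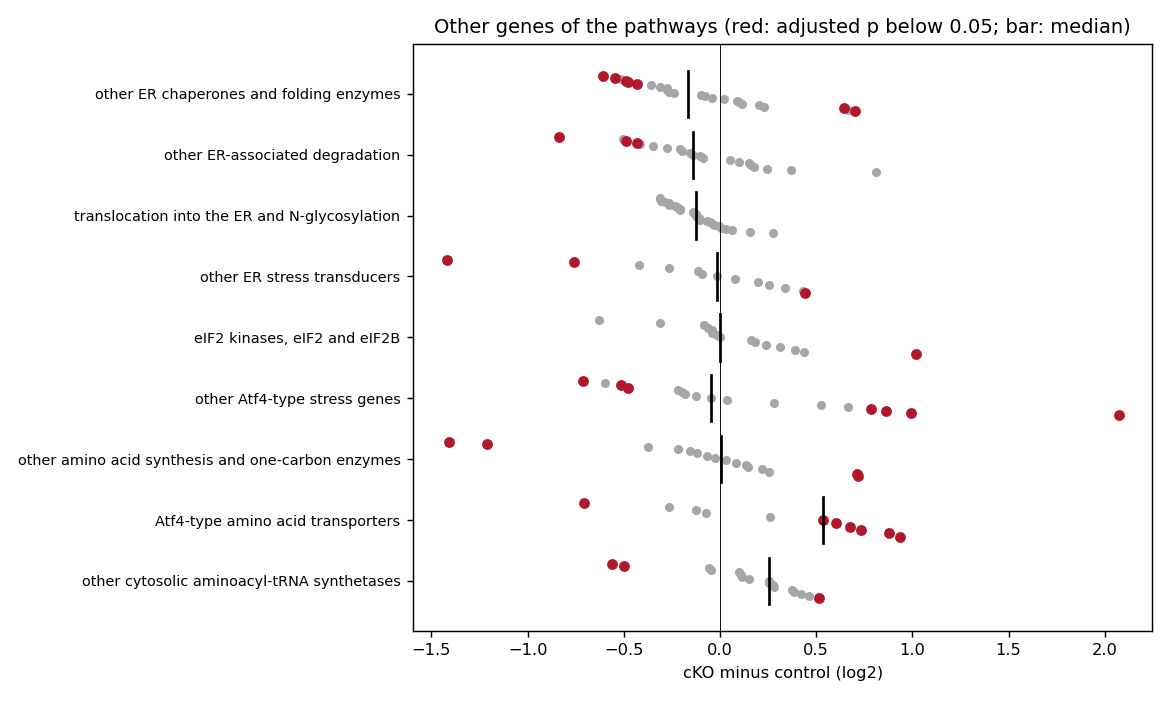
Differences in level, cKO minus control (log2), for each measured gene of the 9 wider lists, 1 list a row, with a bar at each median and red points for genes with a limma adjusted p below 0.05. The amino acid transporters have the highest median of the other lists (0.53) and the other chaperones the lowest (-0.17).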

How the data were processed

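Total RNA from 6 small intestines was labelled and hybridised to Affymetrix Mouse Gene 1.0 arrays, and the values were made with the software dChip, per the design text deposited with the labels. No source used here gives the dChip version, background correction or normalization. The deposited value table holds 35512 probe sets, and its values were read as log2 expression made by the authors, from their range, since no label names the scale. Fold changes rest on that reading.

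Of the probe sets, 21789 had 1 gene symbol in the platform annotation, 1621 had several and 12102 had none listed. Symbols were updated through the RefSeq gene table of GRCm38.p6 for 21698. For the 999 genes with several probe sets the brightest was kept, which gave 19938 genes. Values were used without further scaling and tested with limma 3.58.1 in R 4.3.3 (lmFit and eBayes, two-sided, cKO minus control, all 6 arrays, Benjamini-Hochberg over all genes, threshold 0.05), after a run on simulated data. The number of arrays limits the precision, and since the labels name no separate animals, p-values measure the spread between these samples. All members are named. Of each wider list, up to 3 genes a direction with the smallest p among those called are named. The members and lists were chosen with earlier results of these data known. A gene was taken as at background below the 95th percentile of 1231 receptor genes, a bound set after the values were seen, and 0 of the members were so on all arrays of a group. Single values could be: Ppp1r15a and Atf3 were so on control arrays 1 and 3, and Slc1a4 on control array 3. Promoter motifs were searched as exact letters. The 15 alternatives tried were 3 scalings, 2 filters on dim genes, the mean of a gene's probe sets, array weights, another variance prior, the replicate number as a block and leaving out each array.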

Additional observations from a re-analysis of the deposited data

How the results depend on the processing

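Of the 7 members called, 1 (Sel1l) was called in all 15 alternatives. Of the 27 others, 14 gained a call in at least 1 alternative and 13 in none, and the same count over all genes was not made. Hspa5, Hsp90b1, Pdia3, Pdia4, Dnajc3, Creld2, Manf and Edem1 gained theirs with array weights alone. In that setting 2921 of all genes were higher and 2913 lower, against 1358 and 1467 in the main fit. Quantile normalization gave medians of -0.59 for the degradation genes, 0.22 for the regulators, 0.51 for the amino acid enzymes and 0.046 for the other pathway genes. Median centring gave -0.59, 0.24, 0.54 and 0.053 for the same lists and 0.017 for the sensors, with 1 chaperone and 6 other pathway genes lower. After cyclic loess the median of the other pathway genes was 0.00011. Without the dimmer 50% of genes 4 chaperones were lower, and 1 regulator and 3 enzymes higher, and Ern1, Ddit3, Trib3, Chac1 and Ppp1r15a were not tested there. With array weights 11 chaperones and 1 regulator were lower, 2 enzymes were higher (median 0.31), the median of the sensors was 0.047, and 33 other pathway genes were higher and 32 lower. The variance trend with a robust prior gave 4 lower chaperones and 2 higher enzymes.

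Leaving out 1 array at a time gave 509 to 1275 genes higher and 717 to 1438 lower. Chaperones called lower numbered 0 to 2, degradation genes called lower 1 to 2, regulators called higher 0 to 2 and lower 0 to 1, and enzymes called higher 0 to 1 and lower 0 to 1. The medians ran from 0.11 to 0.22 for the regulators and from 0.24 to 0.53 for the enzymes. Of the other pathway genes 6 to 15 were higher and 5 to 13 lower, with medians of -0.045 to -0.0067. Differences near 0 changed sign: Eif2ak3 to 0.017 by median centring, 0.047 with array weights and 0.005 without control array 3, Chac1 to 0.020 by median centring and 0.0067 without control array 2, and Ern1 to -0.017 without control array 2. Over the arrays left out Eif2ak3 ran from -0.145 to 0.005, Chac1 from -0.17 to 0.0067 and Ern1 from -0.017 to 0.21. The cause of these moves was not tested.

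The groups share replicate numbers 1, 2 and 3. Deviations of same-numbered arrays from their group means correlated by -0.08, 0.13 and 0.14, and those of differently numbered arrays by -0.24 to 0.15. With 3 arrays in each group these values cannot show whether the samples were paired. The numbers were not taken as pairs in the main fit. With the replicate number as a block, 1 regulator was higher (Nupr1 had an adjusted p of 0.057), and 11 other pathway genes were higher and 8 lower.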
